A study of Rattus norvegicus with 6 samples.

Results

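The genes described here are Slc1a2, Slc1a3 and Glul, which clear glutamate in astrocytes. They were taken by Ensembl ID, with a check of the chromosome, and are 3 of the 32552 genes counted. RNA was measured in the striatum (the part of the basal ganglia that receives cortical input) of male Sprague-Dawley rats. The control group (3 samples, labelled 1, 2 and 4) had 0.9% NaCl injected into the peritoneal cavity, and the Mn-exposed group (3 samples, labelled 13, 14 and 17) had MnCl2 at 25 mg/kg, over 15 days. The sources used here do not say whether the dose was daily, how old the rats were or whether each sample is a separate rat. Each p-value for a group difference sets that difference against the spread among these samples, which may be technical. Library totals ran from 21754379 to 32569760 counts.

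Glutamate released by the cortical and thalamic inputs of the striatum is taken up mainly by astrocytes. Slc1a2 encodes GLT-1 (EAAT2), the main glutamate transporter of the adult forebrain, and Slc1a3 encodes GLAST (EAAT1), which is most abundant in cerebellar glia but is also made by forebrain astrocytes. Glul encodes glutamine synthetase, which joins glutamate and ammonia into glutamine for return to neurons. The enzyme needs a divalent metal ion and is a major manganese-binding protein of the brain, and astrocytic glutamate uptake is a known target of excess manganese (Mn).

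The counted models of the 3 genes differ in how much of each gene they hold. On Rnor_6.0, Glul (ENSRNOG00000049560) lies at 71331052 to 71340229 of chromosome 13 (plus strand), and its model has 7 merged exons of 2485 bases in all. Slc1a3 (ENSRNOG00000016163) lies at 57860834 to 57935363 of chromosome 2 (minus strand), with 10 merged exons and 3982 exonic bases, and its span of 74530 bases is 99.2% of the length of the RefSeq gene (GRCr8). Slc1a2 (ENSRNOG00000005479) lies at 92640752 to 92665644 of chromosome 3 (plus strand), but its model holds only 5 exons and 882 bases, and its span of 24893 bases is 19.1% of the 130337 bases of the RefSeq gene. From the inner of the 2 RefSeq starts of Slc1a2 to the gene's end is 82499 bases, which is also longer than the model's span. The Slc1a2 counts are therefore reads over part of the gene. The Glul model spans 9178 bases, close to the 9489 bases from the inner of the 2 RefSeq starts of Glul to the gene's end, and far from the 66055 bases from the outer one. The transporters belong to 1 family, and both models hold an exon of 195 bases followed by one of 135 bases, a pair found in 15 of the 23119 gene models with at least 2 exons. None of the 3 models overlapped another annotated gene. RefSeq lists 2 pseudogenes of Glul and 0 of either transporter under their names, and the sources used here do not say how reads matching both Glul and a pseudogene were counted.

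**Figure D1:**
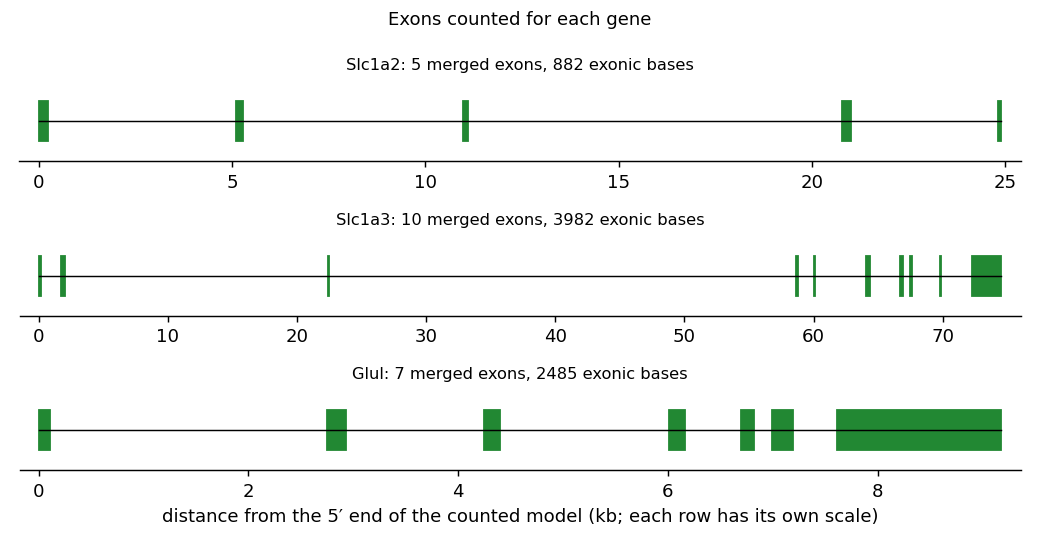
Exons counted for Slc1a2, Slc1a3 and Glul on Rnor_6.0, drawn 5′ to 3′ against distance in kb, each row on its own scale, with green boxes for merged exons. The Slc1a2 model holds 5 short exons (882 bases), where Slc1a3 has 10 (3982 bases) and Glul 7 (2485 bases), each of these ending in a long last exon.

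The 250 bases before a RefSeq start of each gene are shown because the level of a transcript is set in part at its promoter, and the Slc1a2 promoter is a known site of control by NF-kB, described as activating, and YY1, described as repressing. The start shown is the outermost for the transporters and the inner one for Glul, whose distance to the gene's end is near the length of the counted model. The windows are chr3:109459859-109460108 (plus strand) for Slc1a2, chr2:59557809-59558058 (minus strand) for Slc1a3 and chr13:68575816-68576065 (plus strand) for Glul, all from RefSeq on GRCr8, a different build from that of the counts. Capitals mark matches, on either strand, to YY1 (CCATNTT), NF-kB, the cAMP response element (TGACGTCA), the GC box (GGGCGG), the CCAAT box (CCAAT) and the TATA box (TATAAA).
Slc1a2: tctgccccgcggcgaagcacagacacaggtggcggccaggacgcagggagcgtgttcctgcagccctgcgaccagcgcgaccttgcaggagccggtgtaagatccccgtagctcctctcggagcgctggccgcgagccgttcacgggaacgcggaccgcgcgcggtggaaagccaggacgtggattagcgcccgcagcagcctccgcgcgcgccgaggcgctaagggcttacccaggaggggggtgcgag
Slc1a3: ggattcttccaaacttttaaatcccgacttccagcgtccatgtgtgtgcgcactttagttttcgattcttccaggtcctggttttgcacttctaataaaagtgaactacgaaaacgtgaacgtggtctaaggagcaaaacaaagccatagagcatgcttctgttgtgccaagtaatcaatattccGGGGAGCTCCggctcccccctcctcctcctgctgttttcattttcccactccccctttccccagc
Glul: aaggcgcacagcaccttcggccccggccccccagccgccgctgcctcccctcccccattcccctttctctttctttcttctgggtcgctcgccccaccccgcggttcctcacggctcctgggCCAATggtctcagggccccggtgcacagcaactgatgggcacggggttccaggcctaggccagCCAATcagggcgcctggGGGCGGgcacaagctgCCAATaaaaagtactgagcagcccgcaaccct
The Glul window held 3 CCAAT boxes, on the strand shown, and 1 GC box. Of all 33469 RefSeq windows of this length, 34.0% held a CCAAT box and 2.52% held 3 or more, and 30.5% held a GC box. The Slc1a3 window held 1 NF-kB match, 65 to 56 bases before the start, a motif found in 6.33% of windows. The Slc1a2 window, with 71.2% G and C against a median of 51.2% over all windows, held no match to any of the 6. The window of the other RefSeq start of Slc1a2, not printed, had 45.6% G and C and held no match either. Sites more than 250 bases before a start were not searched, so the windows do not show whether the sites described for Slc1a2 are present. YY1 matches were found in 13.8% of all windows, cAMP response elements in 1.59% and TATA boxes in 12.9%, and these 3 motifs were in none of the windows printed. A match is a string of letters, and no binding was measured here.

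All 3 genes were abundant. Levels are given as CPM, the count of a gene against the TMM-scaled size of its library, and are compared between genes per kb of exonic length. Per kb, the control level was 815 ± 65.4 for Glul, 564 ± 13.4 for the Slc1a2 exons counted and 235 ± 3.5 for Slc1a3 (SD, n = 3 each). Of the 15252 genes tested, 41 had a higher mean CPM per kb than Glul, 70 than Slc1a2 and 269 than Slc1a3. In Mn-exposed samples the order was the same, with 562 ± 52 for Glul, 491 ± 27.4 for Slc1a2 and 199 ± 31.4 for Slc1a3 (SD, n = 3 each). There the Glul and Slc1a2 levels overlapped: Mn-exposed 17 had 504 CPM per kb of Glul, and Mn-exposed 13 had 511 of Slc1a2. The place of Slc1a2 in this order is that of the part of the gene counted, and may differ for the whole gene. Each gene had at least 9858 counts in every library, so counting error was at most 1.01% of a value.

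Glul was the gene with the largest difference of the 3, and its level was 31.0% lower in Mn-exposed striatum. Control samples 1, 2 and 4 had 2126, 1837 and 2111 CPM of Glul, against 1502, 1437 and 1253 CPM for exposed samples 13, 14 and 17. Every Mn-exposed sample lay below every control, as in 836 of the 15252 genes tested (5.48%). Control 2 was the lowest of the controls. The control mean of 2025 ± 162 CPM compared with 1397 ± 129 after exposure (SD, n = 3 each), and a two-sided exact permutation test gave p = 0.1, which is the smallest that 3 samples against 3 allow. In edgeR's quasi-likelihood test the log2 fold change was -0.54 (SE 0.16, 95% interval -0.91 to -0.16), with an unadjusted p of 0.0112 and an adjusted p of 0.663 over all genes. Glul thus did not pass the main test, in which 0 of 15252 genes (0%) passed an adjusted p of 0.05 and 1139 (7.47%) had an unadjusted p under 0.05, 489 of them (3.21%) lower in Mn-exposed samples and 650 higher. With library size as the only scaling, 244 (1.6%) were lower and 1239 higher, and the unadjusted p of Glul was 0.0236. DESeq2 called Glul, with a log2 fold change of -0.55 (SE 0.14) and an adjusted p of 0.0241, as 1 of 92 genes called (0.584% of the 15764 with an adjusted p), 40 of them lower in Mn-exposed samples (0.254%). That call was lost in most DESeq2 fits with 1 library left out, each of which also has fewer samples. In those fits the Glul estimate ran from -0.62 (without control 2) to -0.47 (without Mn-exposed 17). The DESeq2 count also moved, and with 1 library left out it ran from 26, when Mn-exposed 17 was dropped, up to 745, when Mn-exposed 13 was dropped, of which 10 and 302 were lower. When 1 control was left out, the DESeq2 adjusted p was 0.0632 (control 1), 0.167 (control 2) or 0.466 (control 4). When 1 exposed sample was left out, the DESeq2 adjusted p was 0.228 (Mn-exposed 14) or 0.419 (Mn-exposed 17), and only leaving out Mn-exposed 13 kept the call (0.0107), in a fit that called 4.78% of genes (1.94% as lower in Mn-exposed samples). In limma-voom the adjusted p of Glul was 0.659.

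**Figure D2:**
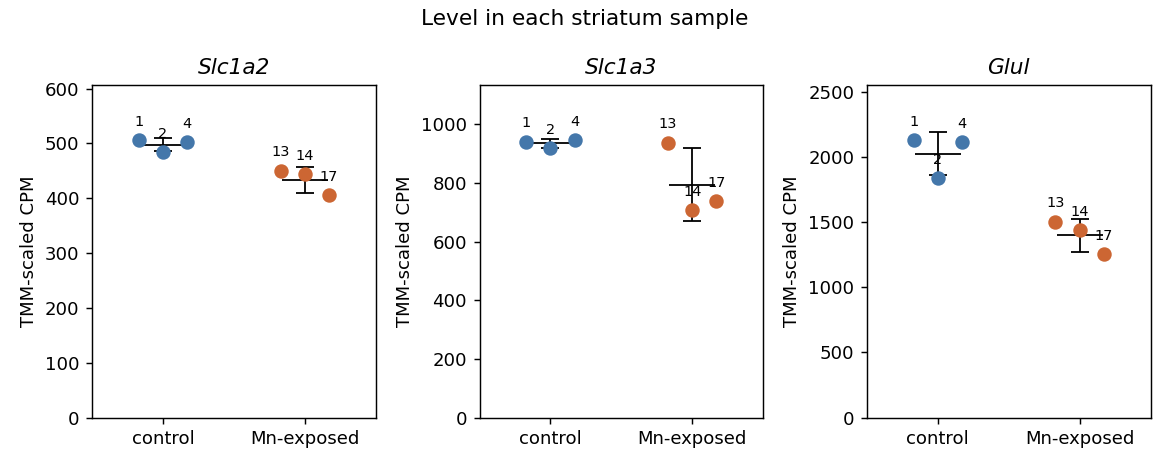
Level of each gene in each sample, as TMM-scaled CPM from 0, for control (blue) and Mn-exposed (orange) striatum, with points labelled by sample number and bars for the mean ± SD (n = 3). In Glul and Slc1a2 all 3 Mn-exposed samples sit below the controls, while in Slc1a3 Mn-exposed 13 sits among them at 938 CPM.

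Slc1a2 was 12.9% lower in Mn-exposed samples, a difference that did not pass the test. Its exons had 506, 484 and 502 CPM in control samples 1, 2 and 4, against 450, 444 and 406 CPM for exposed samples 13, 14 and 17. As for Glul, the groups did not overlap. The controls were close together, with a coefficient of variation of 2.38%, where the median over all genes tested was 14.7% in controls. Mean levels were 497 ± 11.8 CPM without and 433 ± 24.1 with exposure (SD, n = 3 each, two-sided exact permutation p = 0.1). The edgeR log2 fold change was -0.20 (SE 0.13, 95% interval -0.49 to 0.10, adjusted p = 0.697). The DESeq2 estimate was -0.21, with an adjusted p of 0.538. Groups that do not overlap were found for 1842 of all genes tested (12.1%), and 836 of these genes (5.48%) were lower in Mn-exposed samples, as Glul and Slc1a2 were.

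Slc1a3 differed among the Mn-exposed samples. Control samples 1, 2 and 4 had 940, 919 and 945 CPM of Slc1a3, and exposed samples 13, 14 and 17 had 938, 707 and 738 CPM. Mn-exposed 13 was thus within the range of the controls, and Mn-exposed 14 and 17 were below it. With library size as the only scaling, Mn-exposed 13 (943 CPM) was above all controls. The coefficient of variation was 1.49% among controls, where the median over all genes tested was 14.7%, and 15.7% among Mn-exposed samples, where that median was 15.5%. Mean levels were 935 ± 13.9 CPM without and 794 ± 125 with exposure (SD, n = 3 each, two-sided exact permutation p = 0.2). The edgeR log2 fold change was -0.23 (SE 0.16, 95% interval -0.61 to 0.14, adjusted p = 0.715), and DESeq2 gave -0.25 with an adjusted p of 0.69. Without Mn-exposed 13 the edgeR estimate was -0.38 (adjusted p = 0.325), and without Mn-exposed 14 it was -0.15 (adjusted p = 0.93).

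Many abundant genes had lower estimates in Mn-exposed samples, and the 3 genes are read beside them. Over all genes tested the median log2 fold change was 0.02, and 7233 (47.4%) were below 0. Among the 234 genes with a mean CPM at least that of Slc1a2, of which 13 are mitochondrial DNA features, the median was -0.11 and 144 were below 0. The estimate of Glul was near the low end of these, with 17 of the 234, Glul included, at or below it, 1 of them a mitochondrial DNA feature. In 26 of the 234 (11.1%) the groups did not overlap and Mn-exposed samples were lower. When libraries were scaled by their size only, without TMM, the median of all genes was 0.12 and the estimates moved to -0.43 for Glul, -0.09 for Slc1a2 and -0.13 for Slc1a3. Relative to that median they were -0.55, -0.22 and -0.25, as they were relative to the TMM median. With that scaling the groups still did not overlap in Glul and Slc1a2, though in Slc1a2 only by 472 against 463 CPM, and 2507 of all genes tested (16.4%) did not overlap, 413 of them (2.71%) lower in Mn-exposed samples.

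**Figure D3:**
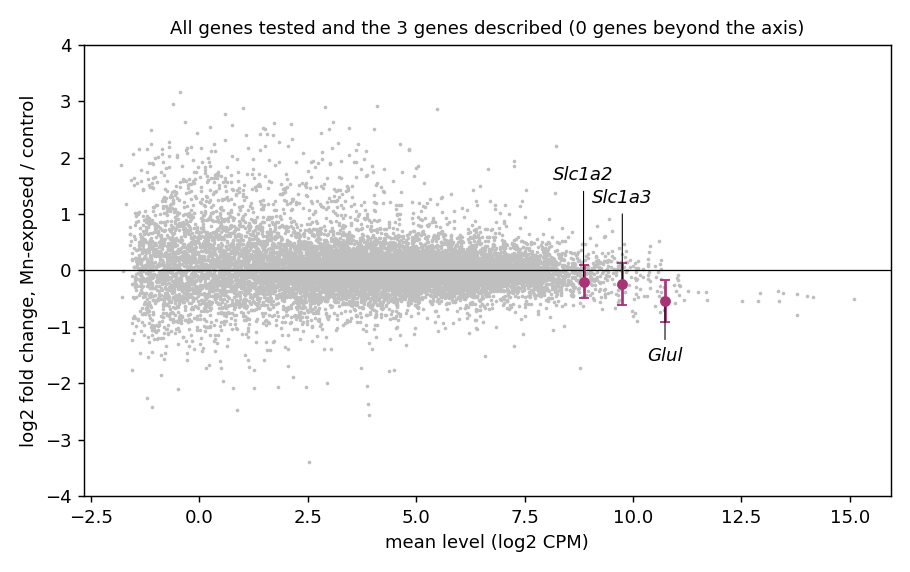
Log2 fold change, Mn-exposed over control, against mean level in log2 CPM for the 15252 genes tested (grey), with Slc1a2, Slc1a3 and Glul in purple and bars for their 95% interval. The 3 genes lie among the most abundant, all below 0, and only the interval of Glul (-0.91 to -0.16) leaves out 0.

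The ratio of 2 genes within a library does not depend on scaling between libraries. For each Slc1a2 count, control samples 1, 2 and 4 had 4.2, 3.8 and 4.2 counts of Glul, and exposed samples 13, 14 and 17 had 3.33, 3.24 and 3.09. These groups did not overlap. The mean ratio was 4.07 ± 0.234 without and 3.22 ± 0.124 with exposure (SD, n = 3 each), 20.8% lower. For levels, the groups did not overlap in 12.1% of all genes tested, and no such share was computed for ratios. Glul over Slc1a3 was 2.26, 2 and 2.23 in control samples 1, 2 and 4, against 1.6, 2.03 and 1.7 for exposed samples 13, 14 and 17, so that Mn-exposed 14 lay within the range of the controls. Slc1a3 over Slc1a2 was 1.86 to 1.9 in the controls and 2.08, 1.59 and 1.82 in Mn-exposed 13, 14 and 17. The control ratios of the transporters thus lay close together, and the Mn-exposed ratios lay on both sides of them. The Slc1a2 side of this ratio is the part of the gene counted. No test was made of these ratios.

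**Figure D4:**
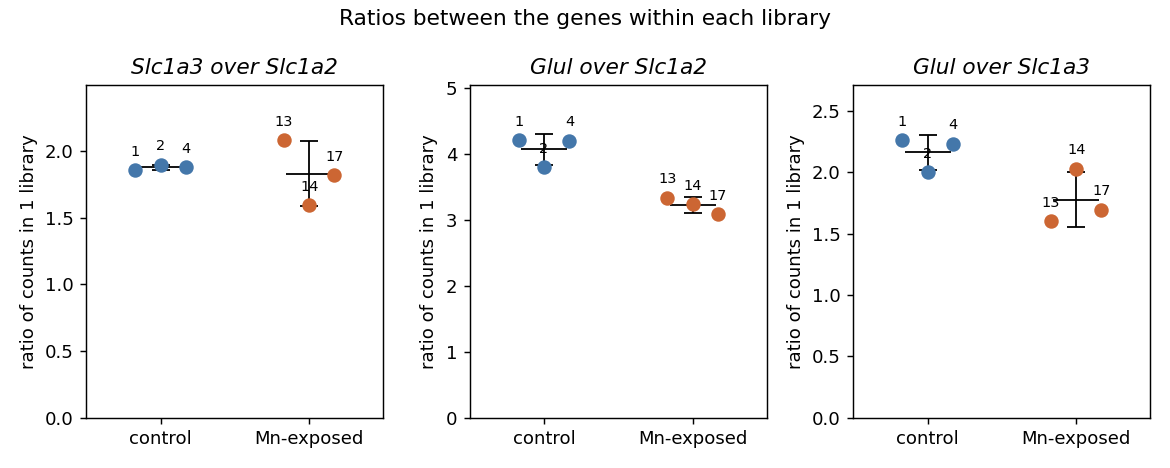
Ratio of the counts of 2 genes within each library, from 0, for control (blue) and Mn-exposed (orange) striatum, with points labelled by sample number and bars for the mean ± SD (n = 3). Glul over Slc1a2 is 3.8 to 4.2 in controls and 3.09 to 3.33 in Mn-exposed samples, while the groups overlap in the other ratios.

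With TMM scaling Slc1a2 and Glul put the 6 libraries in the same order: control 1, control 4, control 2, then Mn-exposed 13, 14 and 17. With library size as the only scaling they did not, since Mn-exposed 14 then had more Slc1a2 than Mn-exposed 13 (463 against 453 CPM) and slightly less Glul (1500.0 against 1511 CPM). Since the groups do not overlap in either gene, a coefficient over all 6 would hold the difference between groups, and 3 per group are too few for one within them. Slc1a3 followed another order, in which Mn-exposed 14 was lowest. The libraries also differ along the first component of the 1000 most variable other genes (44.7% of the variance), on which Mn-exposed 13 scored -22.5, as low as the controls (-24 to -1.59), and Mn-exposed 17 and 14 scored 20.4 and 34.1. Slc1a3 was lower where this component was higher (Pearson r = -0.924 with an exact permutation p of 0.0153, or 0.0458 after Benjamini-Hochberg adjustment over the 6 relations computed, n = 6). Its Spearman rank correlation was -0.657 (exact permutation p of 0.175, adjusted to 0.175). Without Mn-exposed 14 and 17, the 2 libraries farthest from the median score of -3.97, r was -0.186, so the relation rests on those samples. For Slc1a2 r was -0.608 (exact permutation p of 0.199, adjusted to 0.229) and for Glul it was -0.605 (exact permutation p of 0.229, adjusted to 0.229). The Spearman rank correlation was -0.714 for both (exact permutation p of 0.136, adjusted to 0.163). Without the same 2 libraries r was 0.349 for Slc1a2 and 0.351 for Glul. The adjusted exact permutation p of 0.0458 depends on the 6 relations, which include those of the genes with each other. Among these, that of Slc1a2 with Glul had the smallest p, and it holds the difference between groups. The labels name no batch within which these relations could be taken.

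The share of counts from mitochondrial DNA was lower in each Mn-exposed sample than in any control, by little in Mn-exposed 13. The controls had 13.9% to 16.6%, and exposed samples 13, 14 and 17 had 13.8%, 8.64% and 12.4%. Among the exposed samples this is the order of Slc1a3 (13, then 17, then 14) and not that of Glul (13, 14, 17). Among the controls the orders differ. Control 4 had the lowest share (13.90%) and the highest Slc1a3 (945 CPM), and control 1 had the highest share (16.6%) and 940 CPM. An order of 3 samples is weak evidence of a relation, and the part of the mitochondrial share in the differences was not tested. With the mitochondrial features left out of the counts, the estimates were -0.54 for Glul, -0.20 for Slc1a2 and -0.24 for Slc1a3, where they were -0.54, -0.20 and -0.23 with them. This refit changes only which counts enter the scaling and the fit, so it is no test of a relation between the mitochondrial share and these genes. RNA of a whole tissue does not show which cells a difference lies in. Fewer astrocytes, less RNA of these genes per astrocyte and a change in other cell types cannot be told apart. Markers of astrocytes and of other cell types were not analysed here.

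The gene most like Glul over the 6 libraries was ENSRNOG00000038883, at 7331326 to 7397448 of chromosome 20 (minus strand), with a Pearson r of log2 CPM of 0.999. Its mean was 437 ± 20.6 CPM without and 357 ± 17.4 with exposure (SD, n = 3 each), with an edgeR log2 fold change of -0.29 (adjusted p = 0.665). The gene most like Slc1a2 was ENSRNOG00000016322, at 156876706 to 156878486 of chromosome 5 (plus strand), with an r of 0.997 and 904 ± 36 CPM without and 712 ± 80.3 with exposure (SD, n = 3 each; edgeR log2 fold change -0.34, adjusted p = 0.665). Each of these 2 genes was picked for the highest r among 15251. Over all 6 libraries r also holds the difference between groups, so it is no measure of how genes vary together within a group. Of the 15251 other genes tested, 61 (0.4%) had r over 0.95 with Glul, 58 (0.38%) with Slc1a2 and 121 (0.793%) with Slc1a3. The files do not pair IDs with names, so these 2 are given by ID.

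The direction of all 3 estimates was the same in every fit, and the order of Glul as the most negative of them was too. The estimate of Glul was nearest 0 with library size alone (-0.43) and that of Slc1a2 likewise (-0.09), while that of Slc1a3 was farthest from 0 in DESeq2 without Mn-exposed 13 (-0.39).

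**Figure D5:**
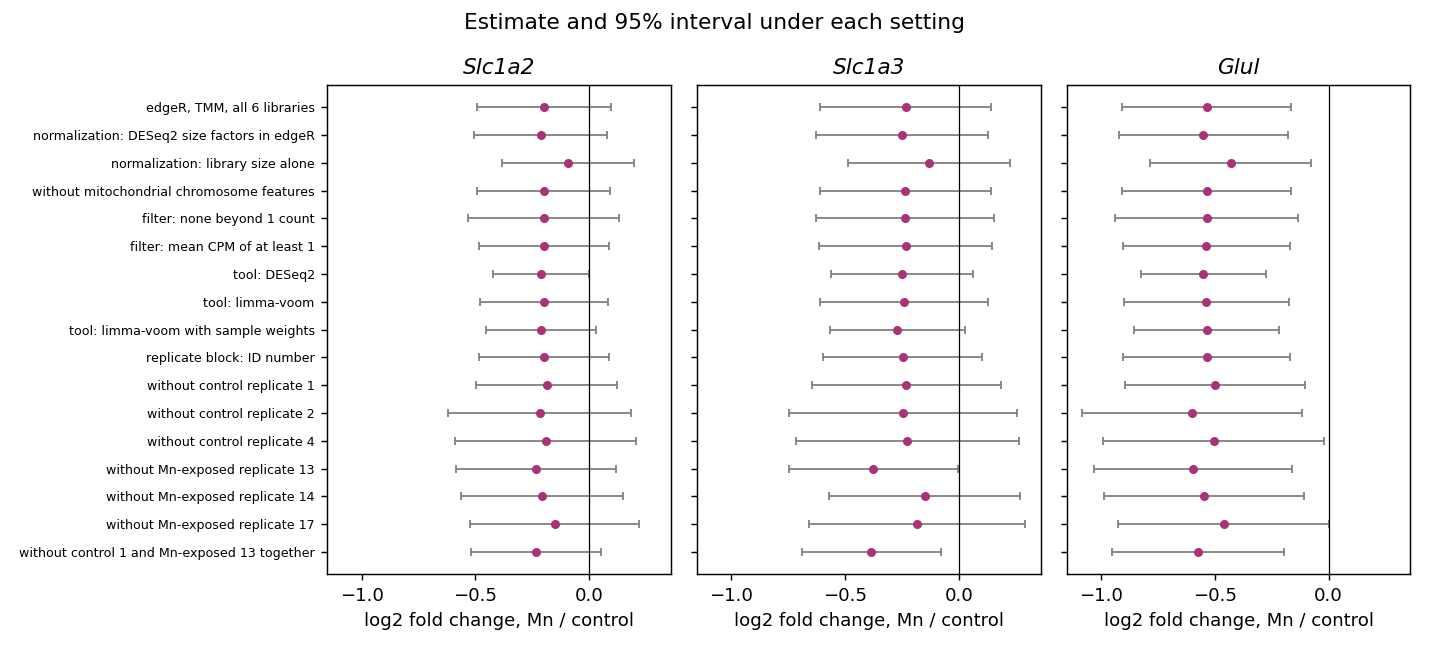
Estimated log2 fold change, Mn-exposed over control, of each gene with its 95% interval under each setting, named on the left, on 1 shared axis (DESeq2 fits with a replicate left out are not drawn). All estimates are below 0, from -0.60 to -0.43 for Glul, and the intervals of Slc1a2 and Slc1a3 cross 0 under most settings. The interval of Glul also reaches 0 without Mn-exposed 17 (-0.92 to 0.0022).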

How the data were processed

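Poly(A)-selected RNA (NEBNext Ultra kit, per the labels' protocols) of 3 control and 3 Mn-exposed striatum samples was analysed. The authors deposited raw read counts for each Ensembl gene. Per the submitters' processing notes, the tools were bcl2fastq 2.17, STAR 2.5.2b and DESeq2 (version not given), with Rnor_6.0 (rn6). No source used here names the counting tool or says whether it used strand. A second table repeated the same counts (0 cells differed).

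The members and lists were chosen with earlier results of these data known. Of the 32552 IDs, 0 matched the RefSeq table, so the lists of other glutamate and glutamine genes and of cell type markers were not analysed here. The named genes are the 3 members and, for each, the gene with the highest correlation of log2 CPM, at most 2 of those with lower estimates (the 2 with the highest r).

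After filterByExpr (15252 genes kept) and TMM scaling, the main test was the quasi-likelihood F-test of edgeR 4.0.16 (R 4.3.3), robust and without a block. P-values were adjusted over all genes by Benjamini-Hochberg, and 0.05 was the threshold. The standard error is the estimate over the root of F. Log2 CPM used a prior count of 2. Alternatives were other scalings and filters, DESeq2 1.42.0, limma-voom (limma 3.58.1, also with sample weights), a block for the ID number, and each library left out. The steps were tested on simulated counts. ID numbers run from 1 to 3 in both groups. Deviations from the group means correlated at 0.417, 0.109 and 0.227 within the 3 pairs, each above the 0.1 set for treating them as pairs, though no label states a shared litter or day. Of the unmatched pairs, 2 were also above it: Mn-exposed 17 paired to control 2 (0.274) and Mn-exposed 14 paired to control 4 (0.145). The main test was kept unpaired, and the fit with the ID number as a block is given as an alternative.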

Additional observations from a re-analysis of the deposited data

How the results depend on the processing

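The estimates for the 3 genes stayed below 0 under every alternative run. With 1 replicate left out, in edgeR or DESeq2, they ran from -0.62 to -0.46 for Glul, -0.24 to -0.15 for Slc1a2 and -0.39 to -0.15 for Slc1a3. Glul passed an adjusted p of 0.05 in DESeq2 (-0.55) and in DESeq2 without Mn-exposed 13 (-0.61), and in no other fit; these called 92 and 745 genes over the whole table. With the replicate block Glul was -0.54 (edgeR adjusted p = 0.285), Slc1a2 -0.20 (0.472) and Slc1a3 -0.25 (0.469), and the block changed no call. DESeq2 called 302, 38 and 31 genes without control 1, 2 or 4, and 745, 60 and 26 without Mn-exposed 13, 14 or 17. In edgeR 58 were called without both control 1 and Mn-exposed 13, and 0 in each fit with 1 replicate left out. At an unadjusted p under 0.05 there were 1139 genes, against 2131 (limma-voom, weighted), 2115 (replicate block), 2692 (edgeR without that pair of libraries) and 576 to 2351 (1 replicate left out; 736 to 2559 in DESeq2). Without that pair, Glul was -0.57 (edgeR adjusted p = 0.154) and Slc1a3 -0.38 (0.202). The difference in the ratio of Slc1a3 to Slc1a2, -0.0482, ran from -0.173 to 0.0708 with 1 replicate left out and was above 0 without Mn-exposed 14. Scaling by library size only brought the Slc1a2 difference from -63.9 to -30 CPM. The causes were not tested. Leaving out that pair of libraries, and replicates in DESeq2, were chosen after the data were seen. Depth did not limit these genes, and the number of libraries limits the precision.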
